A study of Mus musculus with 14 samples.

Results

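The chemokine ligand genes are the protein-coding genes that encode the secreted or membrane-anchored chemokines themselves, as distinct from the receptors that read them. They were chosen by name alone, as every GENCODE mouse symbol made of Ccl, Cxcl, Cx3cl or Xcl followed by a number and, where present, lower-case letters. The rule found 42 of the 56980 genes counted. Expression was measured by bulk RNA-Seq of poly-A RNA in one kidney from each of 14 mice, all female, wild type, 18 weeks old and of the outbred CD-1 stock. Term mice were born naturally and stayed with their own mothers, and preterm mice were delivered by Caesarean section shortly before term and raised by foster mothers that were given acepromazine, a sedative, in their drinking water. Diabetes was induced in early adulthood with low doses of streptozotocin (STZ), a toxin of pancreatic beta cells. The groups were 4 non-diabetic mice born at term (T-ND), 4 diabetic mice born at term (T-D), 3 non-diabetic mice born preterm (PT-ND) and 3 diabetic mice born preterm (PT-D), with no treatment given in the labels of the non-diabetic mice. Caesarean delivery, fostering and acepromazine came with preterm birth and cannot be told apart from it, and some preterm diabetic mice of the study, but no term diabetic mice, had a second round of STZ. All mice of the study were injected with cationic ferritin for imaging shortly before the kidneys were taken, so the non-diabetic term group is not an uninjected one, and the pedicle of the kidney kept for RNA was clamped before the animals were perfused. Each library is one mouse, so the p-values measure the spread between these mice. According to the study, littermates served as non-diabetic controls. The litter of each mouse is not known here, and the tests treated the mice as independent.

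Chemokines are small proteins that bind G protein-coupled receptors on leukocytes and guide their movement along a gradient. Inflammatory chemokines are made on demand by tubular, endothelial and immune cells, many through the transcription factor NF-kB or through interferons, while homeostatic chemokines are made steadily and keep resident and circulating cells in place. In the kidney, Cxcl1 and Cxcl2 draw neutrophils, Ccl2 draws monocytes, and Cxcl9, Cxcl10 and Cxcl11 draw activated T cells.

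Most ligand genes lie in clusters of related copies, and coordinates here are on GRCm39. The neutrophil-attracting genes Cxcl5, Cxcl3, Cxcl15, Cxcl1 and Cxcl2 span chr5:90907186-91053797, and Cxcl9, Cxcl10 and Cxcl11 span chr5:92469206-92513344. Chromosome 11 carries Ccl2, Ccl7, Ccl11, Ccl12, Ccl8 and Ccl1 at chr11:81926397-82196516 and Ccl5, Ccl9, Ccl6, Ccl3 and Ccl4 at chr11:83416602-83555509. Ccl22, Cx3cl1 and Ccl17 share chr8:95471226-95538664, and 9 Ccl19, Ccl21 and Ccl27 genes share chr4:41769467-42773995. Among the genes outside these clusters, Ccl20 (ENSMUSG00000026166.15) lies at chr1:83094487-83096888 on the plus strand, Cxcl12 (ENSMUSG00000061353.12) at chr6:117144945-117158328 on the plus strand and Cxcl14 (ENSMUSG00000021508.12) at chr13:56436352-56444603 on the minus strand. Within the clusters, Ccl2 (ENSMUSG00000035385.6) lies at chr11:81926397-81928279 and Ccl4 (ENSMUSG00000018930.4) at chr11:83553383-83555509. Cxcl1 (ENSMUSG00000029380.12) lies at chr5:91039094-91040974 and Cxcl2 (ENSMUSG00000058427.11) at chr5:91051730-91053797, and these 4 genes are on the plus strand.

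The promoters of 4 ligand genes are shown because their messages stood out in the comparisons below (Cxcl1, Cxcl2, Ccl20) or were the most abundant (Cxcl10). Each run is the 250 bases before the RefSeq start on GRCm38.p6, written 5′ to 3′ on the strand of the gene, and the capitals mark matches on either strand to the kappa B consensus, the sequence bound by NF-kB.
Cxcl1, GRCm38.p6, chr5:90890995-90891244, plus strand: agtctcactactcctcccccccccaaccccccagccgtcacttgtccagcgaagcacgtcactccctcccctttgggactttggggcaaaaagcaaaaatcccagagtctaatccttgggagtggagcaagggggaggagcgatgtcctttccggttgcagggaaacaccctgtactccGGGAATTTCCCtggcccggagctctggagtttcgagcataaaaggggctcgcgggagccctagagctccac
Cxcl2, GRCm38.p6, chr5:90903649-90903898, plus strand: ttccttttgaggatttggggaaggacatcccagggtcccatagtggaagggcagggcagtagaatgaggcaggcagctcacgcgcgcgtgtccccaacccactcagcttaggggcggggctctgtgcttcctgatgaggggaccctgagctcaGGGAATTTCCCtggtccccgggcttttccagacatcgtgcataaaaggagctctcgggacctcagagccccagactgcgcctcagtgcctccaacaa
Ccl20, GRCm38.p6, chr1:83116516-83116765, plus strand: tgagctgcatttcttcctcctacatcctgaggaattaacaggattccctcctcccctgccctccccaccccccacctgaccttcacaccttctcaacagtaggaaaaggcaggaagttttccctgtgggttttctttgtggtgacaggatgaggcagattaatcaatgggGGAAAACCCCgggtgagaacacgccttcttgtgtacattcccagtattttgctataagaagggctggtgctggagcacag
Cxcl10, GRCm38.p6, chr5:92348890-92349139, minus strand: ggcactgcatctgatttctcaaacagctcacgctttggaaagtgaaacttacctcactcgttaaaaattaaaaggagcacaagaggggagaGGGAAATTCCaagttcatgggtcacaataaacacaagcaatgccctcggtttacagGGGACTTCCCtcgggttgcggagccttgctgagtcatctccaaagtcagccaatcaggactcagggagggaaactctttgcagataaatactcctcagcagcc
In Cxcl1 a plus-strand and a minus-strand match overlapped between −71 and −61 from the start, and in Cxcl2 between −97 and −87, so that each reads as one palindrome-like stretch. Ccl20 had one match on the minus strand from −80 to −71, and Cxcl10 had matches from −159 to −150 and from −103 to −94. RefSeq windows from 250 bases before to 50 after the start were held for 28 of the 42 ligand genes, and 7 of them (25%) had a kappa B match, namely Ccl9, Ccl20, Ccl27a, Cxcl1, Cxcl2, Cxcl3 and Cxcl10. The same match was found in 5.14% of 27025 genes. The AP-1 core TGANTCA was found in 6 of 28 ligand windows (21.4%) against 8.97% of all windows, and the interferon-stimulated response element core in 3 (10.7%, Ccl19, Cxcl10 and Cxcl14) against 3.99%. A match is a description of the letters and not a measured site, and Ccl2, Ccl4, Ccl5, Ccl7, Ccl11, Ccl21e, Ccl21f, Ccl24, Ccl26, Ccl27al, Cxcl5, Cxcl11, Cxcl16 and Cxcl17 had no window.

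The 14 libraries held 16697246 to 28673176 reads counted on genes. Ligand levels are given as normalized counts, which are read counts scaled by the TMM method to the mean effective library size, and levels between genes are compared only in TPM, transcripts scaled to a common library total after division by exon length. Kidney tubule and podocyte markers (7 of 7 tested) summed to between 120090.0 and 184520.0 normalized counts in every library, so the labelled tissue was present in each, while perirenal adipocyte markers summed to between 954 and 5929 and urothelium markers to between 87 and 1262. The libraries of a group differed widely in their ligands. Among the 30 ligand genes above 10 normalized counts on average in any group, T-ND replicate 3 had the highest T-ND value for 16 and T-ND replicate 1 the lowest for 17. T-D replicate 3 was lowest of T-D for 14, PT-ND replicate 1 highest of PT-ND for 17 and PT-D replicate 1 highest of PT-D for 16. The median coefficient of variation between mice was 52.5% in T-ND, 40.7% in T-D, 31.5% in PT-ND and 49.0% in PT-D, and it ran from 5.09% for Ccl25 in PT-D to 139% for Cxcl11 in T-ND. Whether such a difference comes from the number of cells making a chemokine or from its RNA per cell cannot be told apart in bulk tissue.

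**Figure D1:**
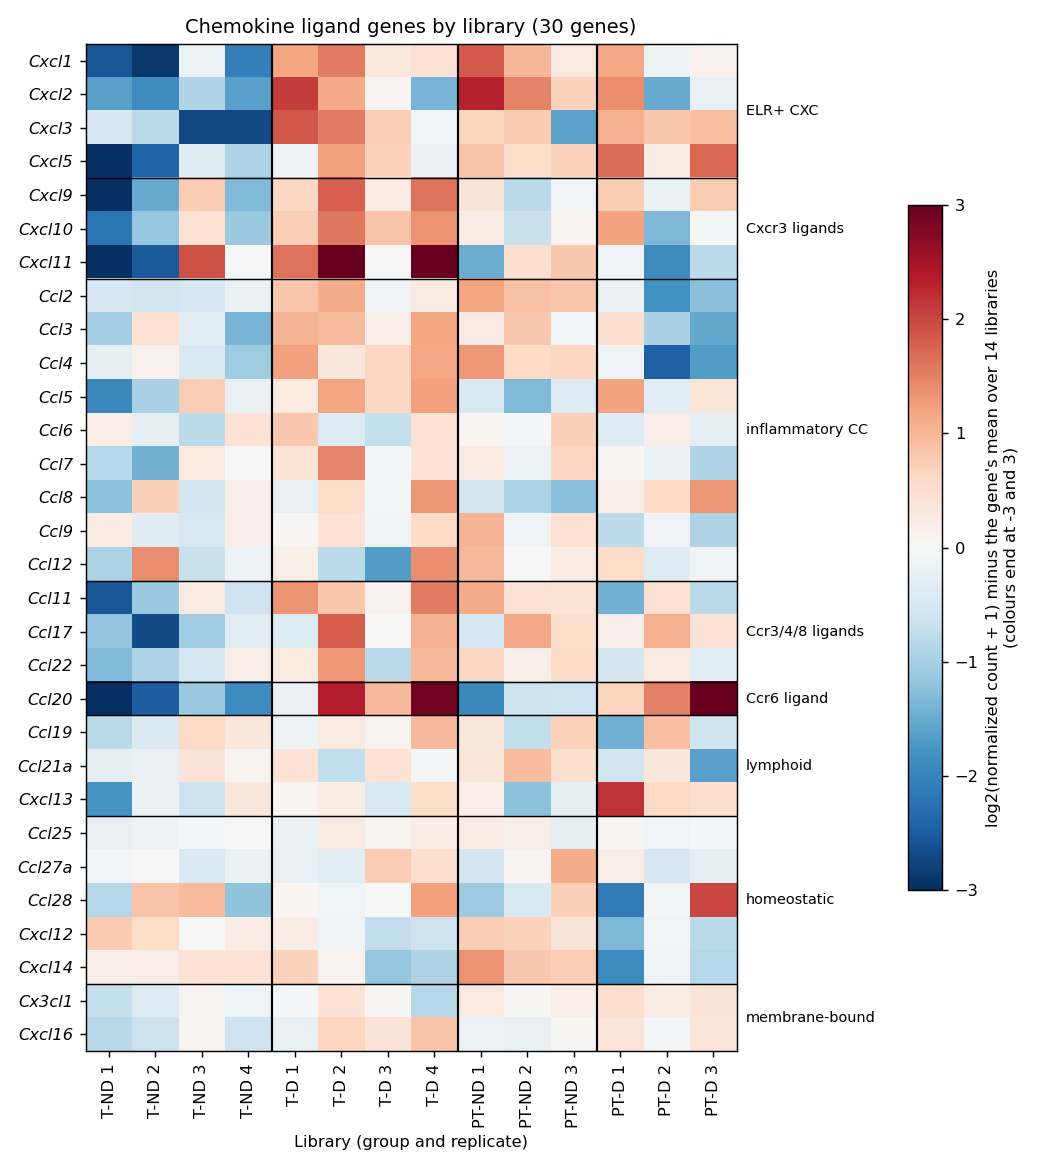
Level of 30 ligand genes (rows, by role) in each of the 14 kidneys (columns, by group), as log2(normalized count + 1) minus the mean of the gene over the libraries, in red above and blue below the mean. Most inflammatory ligands are blue in the T-ND columns, Ccl20 is red in most diabetic columns, and T-ND replicate 3 is the highest T-ND library for 16 of the 30 genes.

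Of the 42 ligand genes, 35 had more than 10 reads in total and were tested. The 7 others were Ccl21b, Ccl21d, Ccl21e, Ccl21f, Ccl26 and Ccl27b, with 0 reads in every library, and Cxcl15 with 3 reads in all. A count of 0 allows up to 3 reads in a library, and the Ccl21 copies share 99.9% to 100% of their 100-base exon windows with another gene, so reads from them could not be assigned to one copy. Of the tested genes, Ccl1, Ccl24, Ccl27al, Cxcl17 and Xcl1 stayed below a mean of 10 normalized counts in all 4 groups and are called low-count here. They had 26 to 89 reads in total, and 0 of these 5 passed with edgeR or DESeq2 in any comparison. Exonic sequence is also shared by Ccl27al (91.8% of windows), Ccl19 (58.5%), Ccl21a (28.6%) and Ccl27a (26.4%), whose counts are uncertain for that reason, while Cxcl2 shared 3.05% and Cxcl3 1.88%. The libraries did not mark strand, and 84.8% of the Cxcl16 exons, 41.7% of Cxcl11 and 35.6% of Ccl3 overlap another annotated gene, which leaves part of their reads ambiguous.

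Cxcl10, an interferon-induced attractant of activated T cells, was the most abundant ligand message at a mean of 688 TPM over the 14 libraries and took 21.9% to 56.0% of the summed ligand TPM of a library. It was followed by the neutrophil attractant Cxcl1 at 168 TPM, the monocyte attractant Ccl2 at 160, the membrane-anchored Cx3cl1 at 98.9 and the epithelial chemokine Ccl28 at 93.0. In all, 17 ligand genes averaged at least 10 TPM and 30 at least 1 TPM. The 42 genes together took between 0.0528% of the gene counts, in T-ND replicate 1, and 0.227%, in T-D replicate 2. By group the mean TPM of Cxcl10 was 374 in T-ND, 1124 in T-D, 505 in PT-ND and 709.8 in PT-D. The order below Cxcl10 changed with the group, since Cx3cl1 (84.6 TPM) and Ccl28 (88.8) stood above Cxcl1 (46.0) in T-ND, whereas Cxcl1 was 214 in T-D and 263 in PT-ND. Within the first 5, Cxcl1 and Ccl2, and Cx3cl1 and Ccl28, differed by less than their spread between libraries.

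**Figure D2:**
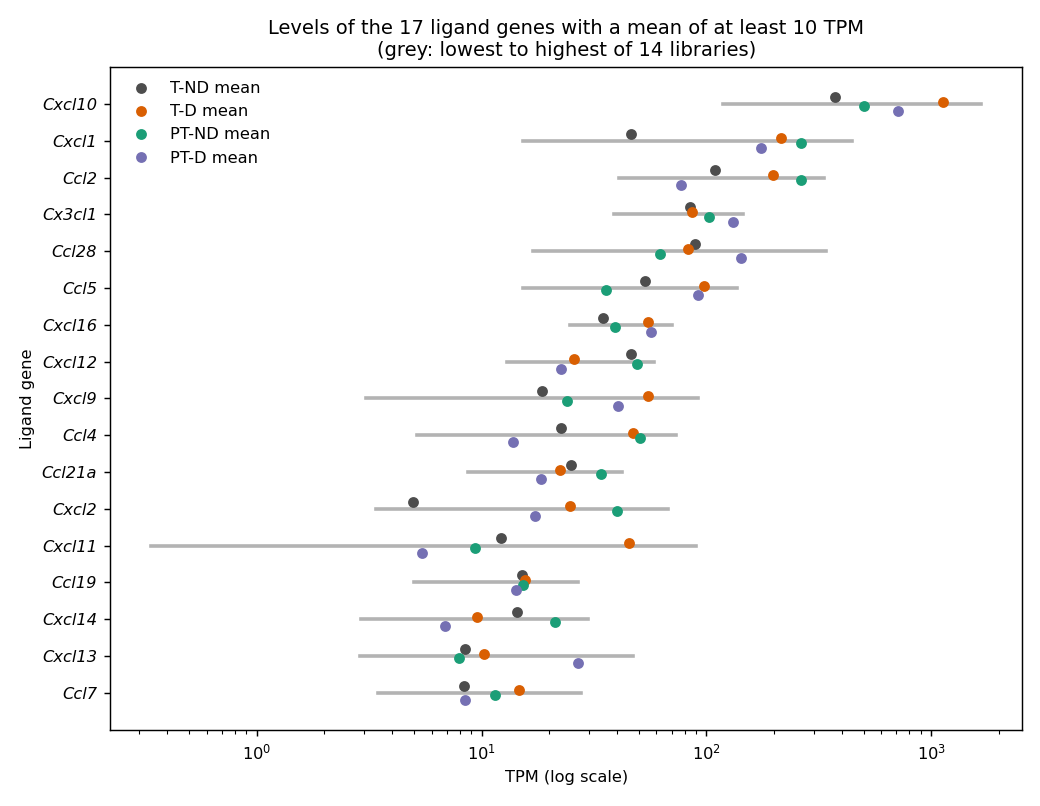
Mean TPM of the 17 ligand genes with at least 10 TPM on average, on a log axis, as 1 point per group over a grey line from the lowest to the highest of the 14 libraries. Cxcl10 leads in every group, from 374 TPM in T-ND to 1124 in T-D, while Cxcl1 has its lowest mean in T-ND (46.0) and Ccl2 in PT-D (76.8).

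Each comparison below counts a gene as differentially expressed (DEG) when edgeR's quasi-likelihood test gave a Benjamini-Hochberg adjusted p below 0.05 over all genes tested and the log2 fold change exceeded 1 in size. The comparisons that use the same control libraries are not independent of each other. PT-D vs. T-ND addressed both exposures together. There 1 of 35 ligands was a DEG, Ccl20, against 1.45% of all genes, and 11 of 35 (31.4%) had an unadjusted p below 0.05 against 24.3% of all genes. The median log2 fold change of the ligands was 0.51 and that of all genes 0.03. The groups did not overlap for 8 ligands higher in PT-D (22.9%), Ccl1, Ccl17, Ccl20, Cx3cl1, Cxcl1, Cxcl3, Cxcl5 and Cxcl13, against 12.0% of all genes, and for 2 lower (5.71%), Cxcl12 and Cxcl14, against 11.2%. DESeq2 called 8 ligands, against 4.32% of all genes: Ccl17, Ccl20, Cxcl2, Cxcl3, Cxcl5 and Cxcl13 higher, and Cxcl12 and Cxcl14 lower. Without T-ND replicate 3 edgeR called 5 ligands (Ccl20, Cxcl1, Cxcl5, Cxcl9 and Cxcl12) against 4.8% of all genes, and without PT-D replicate 1 it called 2 (Ccl2 and Ccl20) against 0.988%. Without T-ND replicate 1, 2 or 4 or PT-D replicate 2 or 3 it called 0 ligands against 0.126% to 0.462% of all genes.

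The effect of preterm birth among diabetic mice was addressed by PT-D vs. T-D. edgeR called 0 of 35 ligands against 0.193% of all genes, 9 of 35 (25.7%) had an unadjusted p below 0.05 against 22.3% of all genes, and DESeq2 called 3, Ccl2, Ccl4 and Cxcl11, all lower in PT-D, against 2.96%. The median ligand was at −0.40 and the median gene at 0.06, and 25 of 35 ligands were on the lower side. Ccl2, Ccl4, Cxcl11 and the low-count Xcl1 were lower in every PT-D library than in every T-D library (4 of 35, 11.4%, against 10.6% of all genes), and 0 ligands were higher in that way against 12.4% of all genes. Without PT-D replicate 1 edgeR called Ccl2 (−2.14, adjusted p = 0.0429) and Ccl4 (−2.97, adjusted p = 0.0177) against 0.189% of all genes, and without T-D replicate 3 it called Cxcl11 (−3.66, adjusted p = 0.0303) against 0.117%.

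Preterm birth in non-diabetic mice was addressed by PT-ND vs. T-ND. Ccl2 and Cxcl2 were DEGs, both higher in PT-ND, which is 2 of 35 ligands (5.71%) against 0.0809% of all genes, and DESeq2 added Ccl4, Cxcl1 and Cxcl5, all higher, against 0.737% of all genes. Of the 35 ligands 31 were on the higher side, with a median log2 fold change of 0.55 where that of all genes was 0.00, and 7 (20%) were higher in every PT-ND library than in every T-ND library against 5.48% of all genes. The 7 were Ccl2, Ccl4, Ccl11, Cxcl1, Cxcl2, Cxcl5 and Cxcl14, and 0 ligands were lower in that way against 5.54% of all genes.

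Diabetes in term mice was addressed by T-D vs. T-ND. edgeR called 0 of 35 ligands against 0.0673% of all genes, 18 of 35 (51.4%) had an unadjusted p below 0.05 against 11.8% of all genes, and DESeq2 called 8 against 1.32%, all higher in T-D: Ccl2, Ccl4, Ccl17, Ccl20, Cxcl1, Cxcl2, Cxcl3 and Cxcl5. The median log2 fold change was 1.01 for the ligands and −0.02 for all genes, and 7 ligands (20%) were higher in every T-D library than in every T-ND library against 2.9% of all genes, namely Ccl2, Ccl4, Ccl20, Cxcl1, Cxcl3, Cxcl5 and Cxcl10. The reverse held for 0 ligands against 3.76% of all genes. T-ND replicate 3 bore on this count. Without it edgeR called 6 ligands higher, Ccl5, Ccl20, Cxcl1, Cxcl9, Cxcl10 and Cxcl16, against 1.3% of all genes, and without T-D replicate 1 it called Ccl20 against 0.126%. Several marker lists had mostly positive log2 fold changes in the same comparison, with 0 called and summed levels that overlapped between the groups. The median was 0.50 for neutrophil markers (7 of 8 positive) and 0.61 for monocyte and macrophage markers (6 of 9). It was 0.69 for T and NK cell markers (6 of 8) and 0.66 for dendritic cell markers (3 of 5). B and plasma cell markers were mostly negative, with 2 of 6 positive and a median of −1.05. Red blood cell markers (4 of 5 tested, Hba-a2 at 0 in all libraries) were positive for 4 of 4 with a median of 1.45 and 0 called, and summed to 454 to 10512 normalized counts in T-ND and 1508 to 20020.0 in T-D. Injured tubule markers (6 of 6 tested) were positive for 5 with a median of 0.78 and 0 called, and summed to 36348 to 53137 in T-ND and 48144 to 86020.0 in T-D. Their part in the ligand levels was not tested.

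Diabetes in preterm mice was addressed by PT-D vs. PT-ND, where the ligands moved in both directions. Ccl5 and Ccl20 were higher in PT-D, and Ccl2, Ccl4, Cxcl12 and Cxcl14 were lower, 6 of 35 ligands (17.1%) against 4.95% of all genes. DESeq2 called 9 against 6.1%, adding Cxcl13 higher and Ccl9 and Ccl21a lower. The median ligand was at −0.27 and the median gene at 0.05. The groups did not overlap for 5 ligands higher in PT-D (14.3% against 18.7% of all genes) and 5 lower (14.3% against 15.8%). The share of ligands without overlap was therefore no larger than that of genes at large, while the share called was. Leaving out 1 library gave 3 to 9 ligand DEGs against 2.67% to 6.37% of all genes, and the libraries behind each lost call are named with the genes below. Of ligands that neither tool called with all libraries, edgeR called Cxcl2 without PT-D replicate 1 and Cxcl11 without PT-ND replicate 1. Ccl9, Cxcl13 and Ccl21a, which DESeq2 alone called with all libraries, also passed with edgeR in some of these fits, as given below.

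Whether diabetes acted differently in preterm and in term mice was addressed by the interaction, the log2 change with diabetes in preterm mice minus that in term mice. It was negative for 27 of 35 ligands with a median of −1.10, where the median of all genes was 0.07. Ccl2, Ccl4, Cxcl1 and Cxcl2 were DEGs, all lower, 4 of 35 (11.4%) against 4.45% of all genes in either direction and 2.46% in the lower direction. DESeq2 called 8 against 7.38%, adding Ccl3, Ccl9, Ccl11 and Ccl22, all lower.

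**Figure D3:**
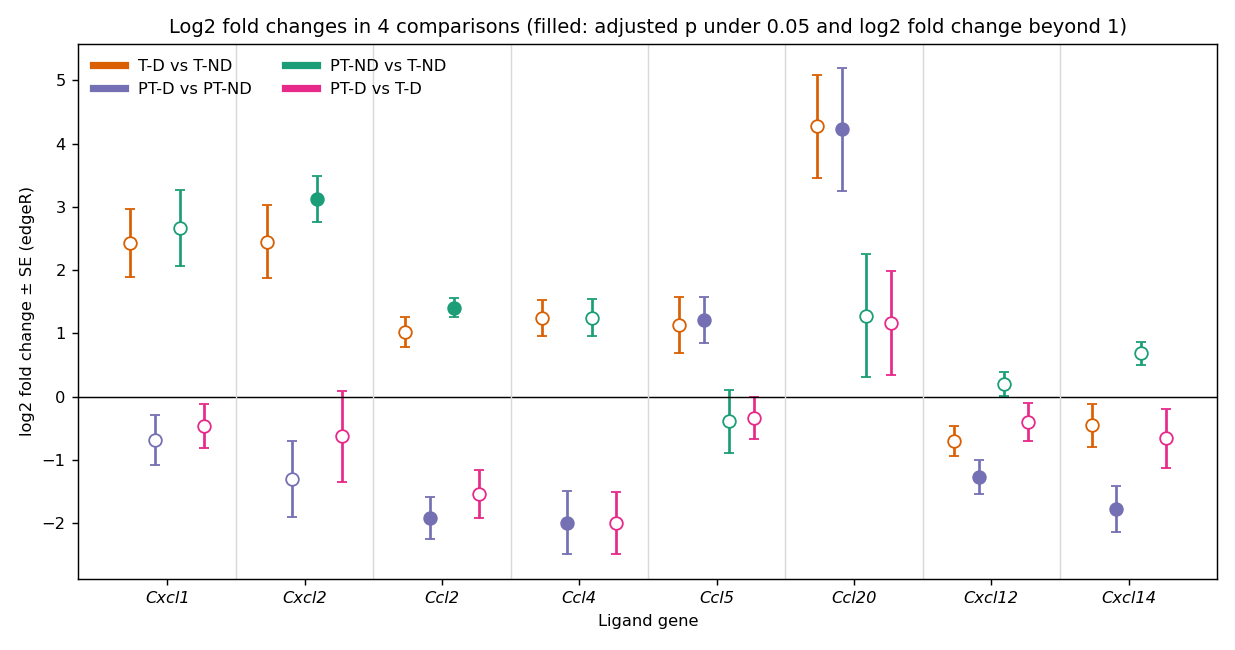
Log2 fold change from edgeR (points) with its SE (bars) in 4 comparisons for the 8 ligand genes that passed in at least 1 comparison or the interaction, filled where adjusted p was under 0.05 and the size over 1. Ccl2 is at 1.41 in PT-ND vs. T-ND and −1.92 in PT-D vs. PT-ND, and Ccl20 is at 4.27 in T-D vs. T-ND and 4.23 in PT-D vs. PT-ND, of which the second passed.

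Among the neutrophil attractants, the CXC chemokines with an ELR motif that bind Cxcr2, 4 of 5 genes were tested. Cxcl1 had 238, 189, 1238 and 338 normalized counts in T-ND replicates 1 to 4 and 3187, 4118, 1745 and 1889.5 in T-D replicates 1 to 4. It had 5044, 2802 and 1711 in PT-ND replicates 1 to 3 and 3131, 1268 and 1535 in PT-D replicates 1 to 3. Every library of the other 3 groups stood above every T-ND library, with PT-D replicate 2 close to T-ND replicate 3, and those 3 groups overlapped one another. The means were 501 ± 496 (SD, n = 4) in T-ND, 2735 ± 1127 in T-D (n = 4), 3186 ± 1699 in PT-ND (n = 3) and 1978 ± 1008 in PT-D (n = 3). The log2 fold change was 2.43 (SE 0.54, adjusted p = 0.139) in T-D vs. T-ND, 2.67 (SE 0.60, adjusted p = 0.185) in PT-ND vs. T-ND and 1.98 (SE 0.61, adjusted p = 0.0910) in PT-D vs. T-ND, none of which passed. Without T-ND replicate 3, which held 1238 normalized counts where the other T-ND libraries held 189 to 338, all 3 passed, at 3.43 (adjusted p = 0.00189) for T-D and 3.64 (adjusted p = 0.00154) for PT-ND. The interaction passed at −3.14 (SE 0.81, adjusted p = 0.0372), and it no longer did when T-ND replicate 1 or 4, T-D replicate 3, any of the PT-ND replicates, or PT-D replicate 2 or 3 was left out (adjusted p 0.0523 to 0.109), nor in 2 of 9 other settings (adjusted p 0.0582 to 0.104).

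Cxcl2, its close relative in the same cluster, had 54.7, 45.7, 90.1 and 54.8 normalized counts in the T-ND libraries and 846, 479.6 and 273 in the PT-ND libraries. The groups did not overlap, and Cxcl2 was higher in PT-ND at a log2 fold change of 3.12 (SE 0.36, adjusted p = 0.0184). The call was lost without T-ND replicate 4 or PT-ND replicate 2 (3.06 to 3.19, adjusted p 0.0557 to 0.0811) and in 3 of 10 other settings, a fit of all 14 libraries, a replicate block and the 9 libraries whose names carry no suffix a (adjusted p 0.101 to 0.120). In the diabetic groups it had 727, 375, 181 and 64.4 in T-D and 449.6, 58.7 and 144 in PT-D. T-D replicate 4 and PT-D replicate 2 lay within the T-ND range and the others above it, and the log2 fold change was 2.45 (SE 0.58, adjusted p = 0.159) in T-D vs. T-ND and −1.30 (SE 0.60, adjusted p = 0.176) in PT-D vs. PT-ND. The interaction passed at −3.76 (SE 0.98, adjusted p = 0.0381) and was lost in 10 of 14 fits that left out 1 library, those without T-ND replicate 1, 2 or 4, T-D replicate 1 or 3, any PT-ND replicate, or PT-D replicate 2 or 3 (adjusted p 0.0510 to 0.113), and in the libraries without a suffix (adjusted p = 0.101).

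Cxcl5, made mainly by epithelial cells, had 5.94, 14.6, 63.9 and 43.0 normalized counts in T-ND, 73.6, 191, 133 and 70.8 in T-D, 149, 121 and 134 in PT-ND and 264, 96.3 and 272 in PT-D. Each T-ND library was below each library of the other groups. In PT-D vs. T-ND the log2 fold change was 2.71 (SE 0.64, adjusted p = 0.0527) with edgeR and passed with DESeq2 (adjusted p = 0.000561), and without T-ND replicate 3 it passed with edgeR too (adjusted p = 0.0161). Cxcl3 was scarce, with 3, 3, 0 and 0 reads in the T-ND libraries, so its own fold against T-ND is not given. The T-D libraries had 22.6, 18.3, 9.91 and 5.15 normalized counts, the PT-ND libraries 9.39, 10.2 and 1.15 and the PT-D libraries 12.8, 10.53 and 11.2, and it passed with DESeq2 in T-D vs. T-ND (adjusted p = 0.0436) and PT-D vs. T-ND (adjusted p = 0.0372). As a group the 4 tested attractants, the scarce Cxcl3 included, had median log2 fold changes of 2.44 in T-D vs. T-ND, 2.37 in PT-ND vs. T-ND and 2.35 in PT-D vs. T-ND. Their median was −0.02 in PT-D vs. PT-ND and −2.74 in the interaction.

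Cxcr2, the receptor of these ligands on neutrophils, followed another order. It had 15.4, 10.96, 40.9 and 11.8 normalized counts in T-ND, 43.0, 36.6, 1.52 and 2.57 in T-D, 9.39, 6.79 and 25.4 in PT-ND and 161, 66.2 and 71.2 in PT-D, and each PT-D library was above each other library. It was higher in PT-D vs. PT-ND at 2.84 (SE 0.55, adjusted p = 0.0111) and in PT-D vs. T-ND at 2.32 (SE 0.52, adjusted p = 0.0480). The first call was kept without any 1 library, and the second was lost in 6 of 7 fits, all but the one without T-ND replicate 3 (1.78 to 2.54, adjusted p 0.0824 to 0.133). In a fit of all 14 libraries and in the libraries without a suffix both calls were lost (first call, adjusted p 0.0603 to 0.0651), and the second also with a replicate block and with the adipocyte marker level as a covariate (4 settings, adjusted p 0.0674 to 0.283). Neutrophil markers (8 of 8 tested) were also highest in PT-D: their summed level was 392 to 1121 normalized counts in T-ND, 396 to 1449 in T-D, 275 to 1443 in PT-ND and 1549.8 to 5332 in PT-D. Within T-D the sum did not follow Cxcr2, since replicate 4 had a sum of 1449 with Cxcr2 at 2.57 and replicate 1 a sum of 769 with Cxcr2 at 43.0. Csf3r, Mmp8 and Ngp were higher in PT-D vs. PT-ND, while Ly6g, the marker most particular to the cell, stayed between 0 and 14.6. The ligand sum of the same libraries was 254 to 1393 in T-ND, 2029.8 to 4703 in T-D, 2119.5 to 6048 in PT-ND and 1433 to 3858 in PT-D. The ligand sum was thus above all T-ND libraries in T-D, PT-ND and PT-D, while the marker sum was above all T-ND libraries throughout PT-D alone. The part of neutrophil content in the ligand levels was not tested.

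**Figure D4:**
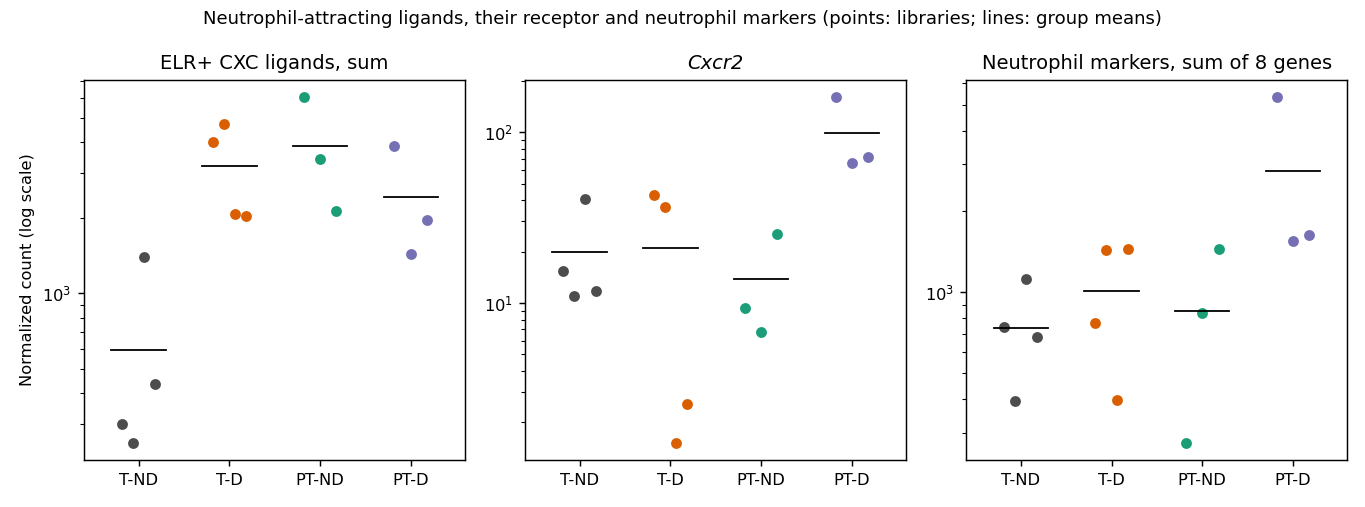
Summed normalized counts of the neutrophil-attracting ligands, normalized counts of Cxcr2 and summed counts of 8 neutrophil markers in each kidney (points), by group, on log axes, with lines at the group means. The ligand sum is 254 to 1393 in T-ND and 1433 to 6048 in the other groups, whereas Cxcr2 is highest in PT-D, at 66.2 to 161.

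The inflammatory CC chemokines attract monocytes, T cells and NK cells, and all 9 were tested. Ccl2, the main monocyte attractant, had 709, 686, 713 and 877 normalized counts in T-ND, 1782, 2189.8, 937 and 1207 in T-D, 2297, 1850.3 and 1795 in PT-ND and 874, 284 and 419 in PT-D. All T-D and PT-ND libraries were above all T-ND libraries, and all PT-D libraries were below all T-D and PT-ND libraries. The means were 746 ± 88.0 (SD, n = 4), 1529 ± 564 (n = 4), 1981 ± 275 (n = 3) and 525 ± 309 (n = 3) in that order. Ccl2 rose in PT-ND vs. T-ND by a log2 fold change of 1.41 (SE 0.14, adjusted p = 0.00649) and fell in PT-D vs. PT-ND, at −1.92 (SE 0.34, adjusted p = 0.00775). It was at 1.02 (SE 0.23, adjusted p = 0.155) in T-D vs. T-ND, −1.54 (SE 0.38, adjusted p = 0.0820) in PT-D vs. T-D and −0.51 (SE 0.32, adjusted p = 0.353) in PT-D vs. T-ND, none past the threshold. The interaction was −2.95 (SE 0.46, adjusted p = 0.00792) and was called without each of the 14 libraries in turn, as was the fall in PT-D vs. PT-ND without each of its 6. The rise in PT-ND was lost without PT-ND replicate 2 (1.46, adjusted p = 0.0508) and in the same 3 settings as that of Cxcl2 (adjusted p 0.0529 to 0.120).

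Ccl4, made by activated macrophages and lymphocytes, had the same arrangement of groups. It had 101, 134, 89.0 and 58.0 normalized counts in T-ND, 291, 155, 194 and 278 in T-D, 304, 185 and 193 in PT-ND and 113, 21.8 and 37.6 in PT-D. T-D and PT-ND lay wholly above T-ND and wholly above PT-D, and PT-D replicate 1 lay within the T-ND range while the other PT-D libraries were below it. Ccl4 fell in PT-D vs. PT-ND at −1.99 (SE 0.50, adjusted p = 0.0278) and its interaction was −3.25 (SE 0.62, adjusted p = 0.0189). Its other log2 fold changes were 1.24 (SE 0.29, adjusted p = 0.159) in T-D vs. T-ND, 1.25 (SE 0.29, adjusted p = 0.206) in PT-ND vs. T-ND and −2.0 (SE 0.49, adjusted p = 0.0802) in PT-D vs. T-D. The fall was lost without any of the PT-ND replicates or without PT-D replicate 3 (adjusted p 0.0598 to 0.0846), and the interaction without PT-D replicate 3 (−3.0, adjusted p = 0.0712).

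Ccl5, which recruits T cells and is itself made by T cells, NK cells and stimulated tubular cells, went the other way in preterm mice. It had 101, 197, 646 and 332 normalized counts in T-ND, 471, 879.8, 599 and 901 in T-D, 281, 153 and 297 in PT-ND and 894, 305 and 496 in PT-D. The PT-ND and PT-D libraries did not overlap, at 153 to 297 and 305 to 894, while T-D and PT-D overlapped. The log2 fold change was 1.21 (SE 0.36, adjusted p = 0.0497) in PT-D vs. PT-ND, just inside the threshold. It fell outside in 5 of 6 fits that left out 1 library, those without any PT-ND replicate or without PT-D replicate 1 or 3 (adjusted p 0.0688 to 0.160), and in 7 of 10 other settings (adjusted p 0.0554 to 0.332). In T-D vs. T-ND it was 1.14 (SE 0.44, adjusted p = 0.362). T and NK cell markers (8 of 8 tested, 0 called) had a median log2 fold change of −0.24 in PT-D vs. PT-ND and 0.69 in T-D vs. T-ND.

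Of the other inflammatory CC genes, Ccl9, made by macrophages, had 207, 135, 124 and 192 normalized counts in T-ND and 178, 233, 159 and 257 in T-D. It had 354, 157 and 237 in PT-ND and 99.4, 162 and 92.8 in PT-D, which overlapped through PT-D replicate 2. Its log2 fold change in PT-D vs. PT-ND was −1.08 (SE 0.32, adjusted p = 0.0519) with edgeR, and it passed with DESeq2 (adjusted p = 0.00959). It passed with edgeR without PT-ND replicate 2 or PT-D replicate 2 (−1.38 to −1.33, adjusted p 0.0312 to 0.0447). Its interaction was −1.40 (SE 0.42, adjusted p = 0.0566) with edgeR and passed with DESeq2 (adjusted p = 0.0127). Ccl3, close to Ccl4 in sequence and function, had 7.13, 21.9, 12.6 and 5.37 in T-ND, 32.8, 31.7, 18.3 and 37.3 in T-D, 18.8, 28.3 and 15.0 in PT-ND and 22.8, 7.52 and 4.80 in PT-D, with an interaction of −2.15 (SE 0.81, adjusted p = 0.115) that passed with DESeq2 (adjusted p = 0.0484) and, without PT-D replicate 1, with edgeR (−3.04, adjusted p = 0.0478). All pairs of groups overlapped for Ccl3, and its counts were low. Ccl6, Ccl7, Ccl8 and Ccl12 passed in no comparison with either tool. Over the 9 genes the median log2 fold change was 1.01 in T-D vs. T-ND, 0.60 in PT-ND vs. T-ND, −0.59 in PT-D vs. PT-ND and −1.40 in the interaction.

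The receptor of Ccl2, Ccr2, had 71.3, 72.2, 11.5 and 77.4 normalized counts in T-ND, 31.7, 34.1, 25.1 and 46.3 in T-D, 130.4, 23.8 and 54.2 in PT-ND and 31.9, 119 and 75.2 in PT-D, with full overlap and no call. Monocyte and macrophage markers (9 of 9 tested) summed to 3158 to 5079 in T-ND, 4396 to 10941 in T-D, 4828 to 5449.7 in PT-ND and 4905 to 9448 in PT-D. In PT-D vs. PT-ND, the comparison in which Ccl2 and Ccl4 fell, 3 of the 9 markers were positive and 6 negative, with a median of −0.14. Adgre1 (1.07) and Cd14 (1.53) were called higher, and the others, from Csf1r at −1.02 to Mrc1 at 0.38, did not pass. The part of monocyte and macrophage content in the ligand levels was not tested.

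**Figure D5:**
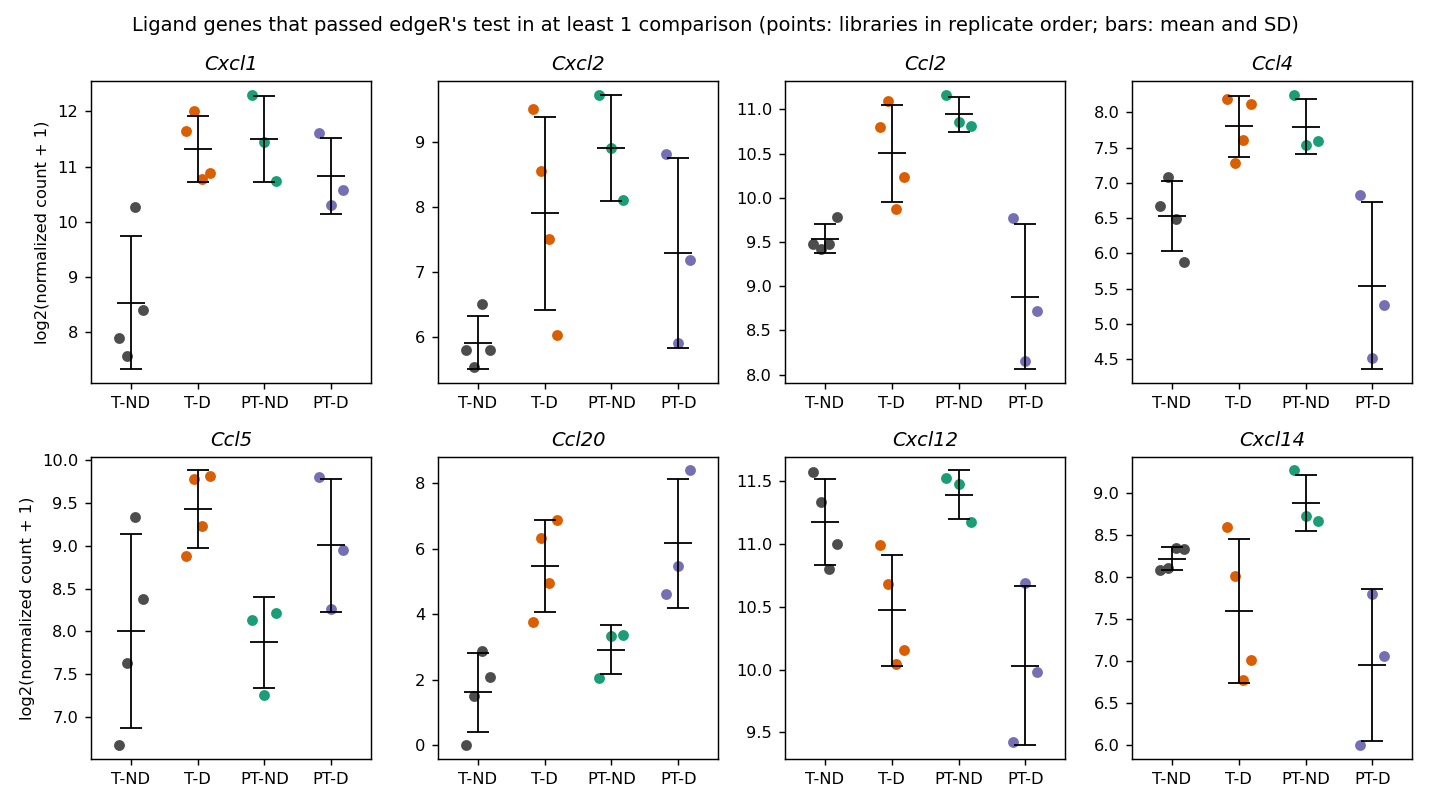
Level of the 8 ligand genes called by edgeR, as log2(normalized count + 1) in each library (points in replicate order), by group, with bars at the mean and SD on that scale. Ccl2 and Ccl4 are high in T-D and PT-ND and low in PT-D, Cxcl12 and Cxcl14 are lower in PT-D than in PT-ND without overlap, and Ccl20 is higher in both diabetic groups than in both non-diabetic groups.

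Cxcl9, Cxcl10 and Cxcl11 are induced by interferon gamma and attract activated T cells and NK cells through Cxcr3. Cxcl10 had 1717, 3513, 10758 and 3655 normalized counts in T-ND and 13119, 23509, 14268 and 20110.0 in T-D, and 9101, 4968 and 8437 in PT-ND and 18241, 3106 and 7567 in PT-D. The T-D libraries were all above the T-ND libraries, and the PT-D libraries overlapped all other groups, with replicate 1 far above replicates 2 and 3. The log2 fold change was 1.83 (SE 0.45, adjusted p = 0.172) in T-D vs. T-ND, 0.36 (SE 0.48, adjusted p = 0.673) in PT-D vs. PT-ND and −1.49 (SE 0.77, adjusted p = 0.249) in the interaction. Cxcl9 had 59.4, 177, 858 and 199.9 in T-ND, 781, 1738, 594 and 1566 in T-D, 662, 289.5 and 474 in PT-ND and 860.1, 438 and 854 in PT-D. T-ND replicate 3, at 858, overlapped the T-D libraries where the other T-ND libraries did not, and T-D vs. T-ND was 1.83 (SE 0.63, adjusted p = 0.314).

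Cxcl11 varied widely, with 8.32, 35.6, 791 and 212 normalized counts in T-ND, 651, 2144, 209 and 1852 in T-D, 74.1, 294 and 367 in PT-ND and 192, 54.9 and 122 in PT-D. Each PT-D library was below each T-D library, the lowest of which, T-D replicate 3, was at 209. The log2 fold change in PT-D vs. T-D was −3.31 (SE 0.70, adjusted p = 0.0683) with edgeR, while DESeq2 passed it (adjusted p = 0.00476). The 3 genes had a median of 1.83 in T-D vs. T-ND, −0.88 in PT-D vs. T-D and 0.36 in PT-D vs. PT-ND. A list of 10 other interferon-gamma-inducible genes, all tested, had medians of 0.91 in T-D vs. T-ND, 0.27 in PT-D vs. T-D and 1.31 in PT-D vs. PT-ND. In the last of these 6 of the 10 were higher, among them Ciita (2.39), Gbp2 (1.94), Gbp5 (1.24), Psmb8 (1.03) and Psmb9 (1.37), while 0 of the 3 ligands passed with edgeR or DESeq2 in that comparison.

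Ccl20, which attracts Ccr6-bearing Th17 cells, regulatory T cells and immature dendritic cells and is made by inflamed epithelium, was near 0 in non-diabetic kidneys. It had 0, 2, 6 and 3 reads in the T-ND libraries, or 0, 1.83, 6.29 and 3.22 normalized counts, and 3.13, 9.05 and 9.23 normalized counts in PT-ND. The diabetic groups had 12.5, 79.2, 29.7 and 116 in T-D and 23.7, 43.6 and 335 in PT-D. Both diabetic groups lay wholly above both non-diabetic groups, and PT-D replicate 3 held most of the PT-D total. Ccl20 was higher in PT-D vs. PT-ND at a log2 fold change of 4.23 (SE 0.97, adjusted p = 0.0195) and in PT-D vs. T-ND at 5.48 (SE 1.05, adjusted p = 0.0325). The size of the second depends on the small prior count of the model, since the T-ND counts were so low. T-D vs. T-ND was 4.27 (SE 0.82, adjusted p = 0.0922) with edgeR and passed with DESeq2 (adjusted p = 2.79e-05), and the interaction was −0.08 (SE 1.01, adjusted p = 0.984). In PT-D vs. PT-ND the call was lost without PT-ND replicate 2 or 3 or PT-D replicate 3 (2.23 to 4.45, adjusted p 0.0647 to 0.0793). In PT-D vs. T-ND it was lost without T-ND replicate 1, 2 or 4 or PT-D replicate 2 or 3 (3.50 to 5.90, adjusted p 0.0641 to 0.115), with the adipocyte marker level as a covariate and in the libraries without a suffix (adjusted p 0.0619 to 0.108). In T-D vs. T-ND it was gained without T-ND replicate 3 or T-D replicate 1 (adjusted p 0.0235 to 0.0462). Its receptor Ccr6 stayed between 0 and 2.10 normalized counts in all libraries, too low to compare.

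The ligands of Ccr3, Ccr4 and Ccr8, which attract eosinophils, Th2 cells and regulatory T cells, had 5 of 6 genes tested, 2 of them low-count. Ccl17 had 9.51, 2.74, 10.47 and 18.3 normalized counts in T-ND, 17.0, 84.1, 22.9 and 48.9 in T-D, 15.6, 52.0 and 33.5 in PT-ND and 25.5, 50.4 and 31.2 in PT-D. PT-D was wholly above T-ND, and T-D replicate 1 was the only T-D library within the T-ND range. The log2 fold change was 2.04 (SE 0.62, adjusted p = 0.255) in T-D vs. T-ND and 1.80 (SE 0.55, adjusted p = 0.0913) in PT-D vs. T-ND, and both passed with DESeq2 (adjusted p = 0.0412 and 0.0224). Ccl22, made with Ccl17 by dendritic cells and macrophages, had 17.8, 23.7, 31.4 and 52.7 in T-ND, 56.6, 113, 25.9 and 91.4 in T-D, 70.9, 52.0 and 68.1 in PT-ND and 31.01, 55.7 and 36.8 in PT-D. All pairs of groups overlapped, and its interaction was −1.80 (SE 0.64, adjusted p = 0.0965), past the threshold with DESeq2 (adjusted p = 0.0327). Ccl11, or eotaxin, had 2.38, 8.22, 23.05 and 11.8 in T-ND, 49.8, 34.1, 20.6 and 56.6 in T-D, 41.7, 26.01 and 25.4 in PT-ND and 6.38, 26.3 and 10.4 in PT-D. PT-ND was wholly above T-ND, and T-D replicate 3 and PT-D replicates 1 and 3 lay within the T-ND range. The interaction was −2.89 (SE 0.85, adjusted p = 0.0547), which passed with DESeq2 (adjusted p = 0.00798) and, without T-ND replicate 3, with edgeR (−3.48, adjusted p = 0.0418).

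The lymphoid chemokines bind Ccr7 and Cxcr5 and organise lymphocytes and dendritic cells, and 3 of 8 were tested. Cxcl13, the B cell attractant, had 21.4, 65.8, 48.2 and 95.7 normalized counts in T-ND, 79.3, 89.0, 54.1 and 111 in T-D, 86.6, 31.7 and 61.2 in PT-ND and 343, 115 and 108 in PT-D. PT-D was wholly above PT-ND and T-ND, and PT-D replicate 1, at 343, stood far above all other libraries. The log2 fold change was 1.65 (SE 0.49, adjusted p = 0.0502) in PT-D vs. PT-ND with edgeR, just outside the threshold, and passed with DESeq2 (adjusted p = 0.00645). It passed with edgeR without PT-ND replicate 1 or PT-D replicate 2 or 3 (1.91 to 2.01, adjusted p 0.0328 to 0.0430). It did not pass without PT-ND replicate 2 or 3 or PT-D replicate 1. Over the 6 fits that left out 1 library, the log2 fold change went down to 0.90 and adjusted p up to 0.169. Ccl21a, made by lymphatic endothelium, had 119, 124, 188 and 153 in T-ND and 194, 85.3, 194 and 142 in T-D. It had 185, 279 and 202 in PT-ND and 98.5, 182 and 45.6 in PT-D, which did not overlap with each other, and its log2 fold change in PT-D vs. PT-ND was −1.03 (SE 0.41, adjusted p = 0.125) with edgeR and past the threshold with DESeq2 (adjusted p = 0.0462). Without PT-D replicate 2 it passed with edgeR (−1.63, adjusted p = 0.0213). Of the 4 lymphatic endothelial markers in the same comparison, Flt4 (1.68) and Pdpn (1.00) were called higher, while Lyve1 (0.27) and Prox1 (−0.35) did not pass, and their part in the Ccl21a level was not tested. Ccl19 passed nowhere.

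Among the homeostatic chemokines, Cxcl12, which holds leukocytes and progenitor cells through Cxcr4 and is made by stromal and endothelial cells, had 3042, 2578, 1781 and 2052 normalized counts in T-ND and 2039.5, 1642, 1057 and 1143 in T-D. It had 2955, 2854 and 2308 in PT-ND and 687, 1651 and 1008 in PT-D. All PT-D libraries were below all T-ND and PT-ND libraries and within the T-D range or lower. The means were 2363 ± 560.5, 1470.2 ± 459, 2705 ± 348 and 1115 ± 491 (SD, n = 4, 4, 3 and 3) in T-ND, T-D, PT-ND and PT-D. Cxcl12 fell in PT-D vs. PT-ND at −1.28 (SE 0.27, adjusted p = 0.0148), which was lost without PT-ND replicate 2 (−1.25, adjusted p = 0.0502) and in the libraries without a suffix (−0.98, adjusted p = 0.0538). It was −1.09 (SE 0.29, adjusted p = 0.0663) in PT-D vs. T-ND, which passed with DESeq2 (adjusted p = 0.00472) and, without T-ND replicate 3, with edgeR (adjusted p = 0.0304). In T-D vs. T-ND it was −0.70 (SE 0.23, adjusted p = 0.295), and the interaction was −0.59 (SE 0.39, adjusted p = 0.382). Its receptor Cxcr4 lay between 47.3 and 123 normalized counts in all libraries with no call.

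Cxcl14, a chemokine of epithelium and stroma, had 269.7, 275, 324 and 321 normalized counts in T-ND, 385, 257, 108 and 127 in T-D, 613, 419.6 and 403 in PT-ND and 62.9, 221 and 133 in PT-D. PT-ND was wholly above T-ND and PT-D wholly below both, while T-D spread from above to below the T-ND range. It fell in PT-D vs. PT-ND at −1.78 (SE 0.37, adjusted p = 0.0136), a call kept without any of the 6 libraries, and was 0.69 (SE 0.18, adjusted p = 0.258) in PT-ND vs. T-ND and −1.34 (SE 0.57, adjusted p = 0.160) in the interaction. In PT-D vs. PT-ND, fibroblast and pericyte markers (5 of 5 tested) were positive for 3 and negative for 2 (Dcn −0.15, Col1a2 −0.05), with a median of 0.24 and Pdgfrb called higher. Blood endothelial markers (5 of 5 tested) were also positive for 3 and negative for 2 (Emcn −0.29, Tek −0.32), with a median of 0.40 and Cdh5 and Kdr called higher. The part of these cells in the Cxcl12 and Cxcl14 levels was not tested. Ccl28, made by mucosal and other epithelia, was abundant and erratic, with 1249, 4072, 4348 and 969.6 in T-ND, 2335, 2136, 2247 and 5330.0 in T-D, 1059.7, 1650.1 and 3671 in PT-ND and 529.9, 2214 and 9039.8 in PT-D. Its groups overlapped fully and its log2 fold changes, from −0.32 in PT-ND vs. T-ND to 0.89 in PT-D vs. PT-ND, had large errors. Ccl25, a thymic and gut chemokine, was the steadiest ligand in 3 of the 4 groups and passed nowhere, as did Ccl27a.

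The membrane-bound ligands are tethered by a mucin stalk and can also act in adhesion. Cx3cl1, or fractalkine, had 1462, 1835, 2541 and 2188 normalized counts in T-ND, 2335, 3223, 2465 and 1314 in T-D, 2866, 2438 and 2770.3 in PT-ND and 3332, 2795 and 3119 in PT-D. PT-D was wholly above T-ND, at a log2 fold change of 0.61 (SE 0.18, adjusted p = 0.0842), which did not pass. In PT-D vs. PT-ND it was 0.20 (SE 0.14, adjusted p = 0.410). Its receptor Cx3cr1, of monocytes, macrophages and NK cells, had 41.6, 64.8, 8.38 and 23.6 in T-ND, 3.40, 10.97, 3.05 and 2.57 in T-D, 15.6, 12.4 and 4.62 in PT-ND and 27.4, 51.9 and 50.4 in PT-D. Each PT-D library was above each T-D library, an arrangement that held for 12.4% of all genes, and Cx3cr1 was not called in that comparison. Cx3cr1 was higher in PT-D vs. PT-ND at 1.97 (SE 0.53, adjusted p = 0.0349) and had an interaction of 4.77 (SE 0.94, adjusted p = 0.0199). The first was lost without PT-ND replicate 2 or 3 or PT-D replicate 2 or 3 (adjusted p 0.0916 to 0.111) and in 3 of 10 other settings (adjusted p 0.0511 to 0.0755). The interaction was lost without PT-ND replicate 3 or PT-D replicate 3 (adjusted p 0.0603 to 0.0635) and in the libraries without a suffix (adjusted p = 0.107). Cxcl16, the other tethered ligand, was at 0.90 (SE 0.25, adjusted p = 0.208) in T-D vs. T-ND and 0.69 (SE 0.21, adjusted p = 0.0945) in PT-D vs. T-ND, and passed with neither tool.

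Of 18 signalling chemokine receptors 14 were tested, and Cxcr2 and Cx3cr1 were the receptor DEGs, both higher in PT-D vs. PT-ND, with 0 lower in any comparison. The largest receptor shift was in PT-D vs. T-D, with a median of 0.81 against 0.06 for all genes, 12 of 14 positive and 0 called. T-D vs. T-ND had a median of −0.27 against −0.02, with 10 of 14 negative and 0 called. The median receptor was at 0.33 in PT-D vs. T-ND, 0.11 in PT-ND vs. T-ND, 0.02 in PT-D vs. PT-ND and 0.16 in the interaction. There the median gene was at 0.03, −0.0005, 0.05 and 0.07. Of the 5 atypical receptors, which bind chemokines without signalling for movement, Ccrl2 passed. It had 162, 257, 382 and 242 normalized counts in T-ND, 804, 732, 412 and 683 in T-D, 854, 529 and 545 in PT-ND and 441, 196 and 219.9 in PT-D. T-D and PT-ND lay above T-ND, and PT-D replicate 1 was the only PT-D library above the T-D minimum. It fell in PT-D vs. PT-ND at −1.17 (SE 0.30, adjusted p = 0.0305) and its interaction was −2.51 (SE 0.46, adjusted p = 0.0163). The fall was lost in 5 of 6 fits, all but that without PT-D replicate 1 (adjusted p 0.0573 to 0.0951), and the interaction without PT-D replicate 3 (−2.33, adjusted p = 0.0620) and in the libraries without a suffix (−2.71, adjusted p = 0.0632).

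A list of 18 NF-kB-inducible genes outside the chemokines, all tested, lay beside the inflammatory ligands. Its median log2 fold change was 1.26 in T-D vs. T-ND with 17 of 18 positive and 0 called, and 1.21 in PT-ND vs. T-ND with 17 positive and Sele, the endothelial adhesion molecule E-selectin, higher at 2.73 (SE 0.40, adjusted p = 0.0442). In PT-D vs. PT-ND the median was −0.51. There Sele (−2.65), Csf3 (−2.51) and Tnf (−1.90) fell and Lcn2, a tubular injury gene, rose (2.77). The interaction was negative for 17 of 18 with a median of −1.44, and 7 were lower, Csf3 (−5.30), Il6 (−4.42), Nfkbia (−1.94), Sele (−4.11), Tnf (−2.84), Tnfaip3 (−2.46) and Vcam1 (−1.51). Nfkbia, the inhibitor that NF-kB induces to shut itself off, had 1276, 1415, 2555 and 1402 normalized counts in T-ND, 4344, 3988, 3761 and 3841 in T-D, 4766, 3788 and 3626 in PT-ND and 2747, 2386 and 2450.3 in PT-D. All T-D and PT-ND libraries were above all T-ND libraries and above all PT-D libraries, as for Ccl4. The place of PT-D differed, since Nfkbia in each PT-D library was above T-ND replicates 1, 2 and 4, whereas Ccl4 in PT-D was within or below the T-ND range. In PT-D vs. T-ND the list had a median of 0.78 with 15 of 18 positive, while the median of the inflammatory CC ligands was −0.12. Whether NF-kB activity set the ligand levels was not tested.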

How the data were processed

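Total RNA from one kidney per mouse was made into unstranded poly-A libraries. According to the methods of the study, the authors trimmed the reads, aligned them to GRCm39 with STAR and counted them per GENCODE M36 gene. Their deposited counts, the unstranded column of each library, were used as they stood, and the rows of unassigned reads (ambiguous 6.86% to 8.09% and no feature 2.39% to 5.42% of uniquely mapped reads, multimapping 9.07% to 14.9% of all reads) stayed out. Genes with a total above 10 counts over the 14 libraries entered edgeR 4.0.16 (R 4.3.3, TMM, quasi-likelihood test, Benjamini-Hochberg adjustment), fitted per pair of groups on its own libraries and, for the interaction, on all 14. DESeq2 1.42.0 was an alternative, and its adjusted p was NA for 3 to 7 ligands. Symbols, coordinates and exon lengths came from GENCODE M39 on GRCm39, with 56236 of 56980 gene IDs matched without version. The ligand rule and the gene lists were chosen with earlier results of these data known. Values in every library are given for ligands that edgeR or DESeq2 called in any comparison, the 5 with the highest mean TPM, and Cxcl9, Cxcl10, Ccl5 and Cx3cl1. The scripts were tested on simulated data.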

Additional observations from a re-analysis of the deposited data

Results flagged for a closer look

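In 44 group-by-gene sets of 4 libraries the highest or lowest value was compared with the rest by Dixon's criterion, which flags about 5% of such sets by chance. It marked 3. Cxcl1 stood at 1238 normalized counts in T-ND replicate 3, where the other T-ND libraries held 189 to 338. Ccl2 stood at 877 in T-ND replicate 4, where the others held 686 to 713. Ccl28 stood at 5330.0 in T-D replicate 4, where the others held 2136 to 2335.

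The change with diabetes differed between preterm and term mice, by edgeR's interaction test, for 4 ligands. The log2 difference was −3.14 for Cxcl1 (adjusted p = 0.0372), −3.76 for Cxcl2 (adjusted p = 0.0381), −2.95 for Ccl2 (adjusted p = 0.00792) and −3.25 for Ccl4 (adjusted p = 0.0189). Cxcl1 and Cxcl2 were at positive values with diabetes in term mice and at negative values in preterm mice, as were Ccl2 and Ccl4.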

How the results depend on the processing

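Of 854 refits of 47 gene and comparison pairs, 685 kept the direction and the side of the threshold, 88 lost the call, 81 gained one and 0 reversed. Only pairs called by edgeR could lose a call, and edgeR called 13 of the 41 ligand pairs. The other ligand pairs entered because DESeq2 called them, so their gains with DESeq2 were fixed in advance. Counts of ligand DEGs also moved. PT-D vs. T-ND had 1 with edgeR and TMM, 8 with DESeq2, 2 with upper quartile normalization, 6 without the low-count filter, 2 in a fit of all 14 libraries, 3 with the suffix a of the library names as a covariate, 0 with the adipocyte marker level as a covariate and 0 in the libraries without suffix a. Of all genes these fits called 323, 964, 388, 645, 343, 417, 106 and 70, with 22310 genes tested in the first and 28515 without the filter. PT-D vs. T-D had 0, against 3 with DESeq2, 4 without the filter, 2 in the fit of all 14, 1 with the replicate block, 1 with the adipocyte covariate and 1 without suffix a. Of all genes these fits called 43, 661, 657, 396, 83, 113 and 17. PT-ND vs. T-ND had 2, against 5 with DESeq2 and 0 in the fit of all 14, with the block and without suffix a, where 18, 164, 22, 6 and 17 of all genes were called. T-D vs. T-ND had 0, against 8 with DESeq2 and 5 without the filter, beside 15, 293 and 109 of all genes. PT-D vs. PT-ND had 6, against 10 without the filter and 10 with the block, beside 1105, 1501 and 1290 of all genes. The interaction had 4, against 8 with DESeq2 and 2 without suffix a, beside 993, 1648 and 12 of all genes. Leaving out 1 library gave 0 to 5, 0 to 2, 0 to 3, 0 to 6, 3 to 9 and 1 to 5 in that order of comparisons. The shares of all genes called were then 0.126% to 4.8%, 0.117% to 0.471%, 0.0045% to 0.432%, 0.00899% to 1.3%, 2.67% to 6.37% and 0.34% to 5.56%. The causes of these shifts were not tested, except that fewer libraries entered some fits.

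Same-numbered libraries of different groups had r of −0.122 to 0.134 over 19 pairs (mean −0.03), and other pairs a mean of 0.01. With deviations from means of 3 or 4 libraries, this cannot show whether the numbers pair the mice. In the same order of comparisons, the replicate block gave 1, 1, 0, 0, 10 and 3 ligand DEGs, where it called 73, 83, 6, 19, 1290 and 563 of all genes. Without the block 323, 43, 18, 15, 1105 and 993 genes were called. The adipocyte covariate was chosen after seeing the data. What suffix a stands for is not given in the labels, and 5 libraries carry it. The groups of 3 and 4 mice and the median spread of 31.5% to 52.5% between them limit which changes could be called.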
